A study of Homo sapiens with 8 samples.

Results

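The genes described here are 10 core components of transforming growth factor beta (TGF-beta) signaling: the ligands TGFB1, TGFB2 and TGFB3, the activin subunit INHBA, the receptors TGFBR1, TGFBR2 and TGFBR3, the signal transducer SMAD3, and the inhibitors SMAD7 and SKIL. They were taken by gene symbol from an RNA sequencing table of 21059 genes, and all 10 were present. TGFB1 was listed under another symbol, AC011462.1, and was found by its Ensembl identifier, ENSG00000105329. The cells were MDA-MB-157, an established human breast cancer line without estrogen receptor. Per the methods, cells of both groups were first conditioned in low glucose medium and then kept without serum. For 48 hours they were held in 5 mM glucose (low glucose, 4 libraries) or switched to 25 mM glucose as a model of the hyperglycemia of diabetes (high glucose, 4 libraries). The question is which transcripts differ between these glucose levels. The comparison rests on 1 cell line. The methods mention mannitol as an osmotic control in some experiments, and the labels name none for these 8 libraries.

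TGF-beta ligands are secreted as latent dimers, held to the matrix by latent TGF-beta binding proteins until integrins or proteases release them. Active ligand brings TGFBR2 and TGFBR1 together, and TGFBR1 then phosphorylates SMAD2 and SMAD3, which enter the nucleus with SMAD4 and regulate target genes. TGFBR3 is a coreceptor that presents ligand and is best known for aiding TGFB2, which binds TGFBR2 poorly on its own. Activins use their own receptors but pass their signal to the same SMAD2 and SMAD3. SMAD7 and SKIL are targets of the pathway that act back on it, SMAD7 at the receptor and SKIL on the SMAD proteins at DNA. In mammary epithelium the pathway is known for restraining growth and, in invasive cells, for matrix production and a mesenchymal state.

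The members did not move as a block. TGFB2 was 2.65-fold higher at high glucose (148 ± 2.42 against 393 ± 34.5 counts per 1000000 reads, CPM; mean ± SD, n = 4 per group), while TGFB1 fell by 30.6% and TGFB3 by 41.8%. All 3 receptors rose, TGFBR1 the most, and so did both inhibitors, SKIL and SMAD7. Smaller rises were found for INHBA and SMAD3. All 10 members passed an adjusted p of 0.05 in limma's moderated test across all genes, 8 higher and 2 lower, and in all 10 the 4 libraries of one group did not overlap with those of the other. These counts have to be read against a table in which very many genes differed. Of all 21059 genes, 46.8% passed the same threshold, 22.0% higher and 24.8% lower at high glucose. Among the 11297 genes with a mean of at least 5 CPM, as all members had, 66.9% passed, and in 65.0% the groups did not overlap. The median size of the change, without its sign, was 0.61 on the log2 scale over the 10 members, 0.35 over the genes with at least 5 CPM and 0.25 over all genes. The median signed change was 0.38 over the members and -0.01 over all genes. A difference between the groups was thus common in this table, well beyond these genes. The members were chosen with earlier results of these data known, so their comparison with all genes is a description.

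The libraries held an estimated 9721637 to 12482546 reads, so that 3 reads corresponded to 0.212 to 0.267 CPM and every member was far above that floor in every library. High glucose replicate 1 stood apart from the other 3 high glucose libraries. For each library, a gene's deviation was taken from its mean over the other libraries of the same group. Over 11223 genes, the rank correlation of this deviation with transcript length was -0.65 in high glucose replicate 1. It was -0.13 to 0.06 at low glucose. In the other high glucose libraries, whose reference mean includes this library, it was 0.25 to 0.47. These correlations are given as a description. This library was the lowest of its group in 8 of the 10 members, all but TGFB1 and SMAD7. Without it, the members still divided into 8 higher and 2 lower. With the trend with transcript length removed from each library, the division was also 8 higher and 2 lower.

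The stretches just upstream of 4 members are shown because the 3 ligands moved in different directions and SKIL had the largest rise among the inhibitors. They are the 100 bases before the RefSeq transcription start, read 5′ to 3′ on the strand of the gene in GRCh38.p14. Capitals mark matches to 3 motifs. They are CACGTG, the E-box bound by USF and MYC proteins, TGACGTCA, the cAMP response element (CRE), and CAGAC, the short SMAD box. The stretches lie at chr19:41353923-41354022 on the minus strand (TGFB1), chr1:218345236-218345335 on the plus strand (TGFB2), chr14:75983012-75983111 on the minus strand (TGFB3) and chr3:170357615-170357714 on the plus strand (SKIL).

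TGFB1: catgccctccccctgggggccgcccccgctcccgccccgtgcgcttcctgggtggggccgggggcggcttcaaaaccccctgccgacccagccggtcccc

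TGFB2: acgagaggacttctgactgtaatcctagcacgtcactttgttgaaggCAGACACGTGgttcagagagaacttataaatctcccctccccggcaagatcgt

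TGFB3: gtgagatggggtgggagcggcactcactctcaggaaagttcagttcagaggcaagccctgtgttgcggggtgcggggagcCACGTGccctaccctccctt

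SKIL: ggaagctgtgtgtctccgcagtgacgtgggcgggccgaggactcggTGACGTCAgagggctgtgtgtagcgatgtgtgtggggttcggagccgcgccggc

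Motifs were searched on both strands in the whole window of 300 bases, from 250 before to 50 after the start, in the 10 members and in 27305 RefSeq genes. The E-box CACGTG was found in 3 of 10 members, TGFB2 (first base at -49), TGFB3 (-20) and SMAD3 (-173), and in 7.43% of all windows. It thus lay upstream of the ligand that rose the most and of the ligand that fell the most. The CRE TGACGTCA was found in 1 member, SKIL (-54), and in 1.98% of all windows. The SMAD box CAGAC, a short and common word, was found in 7 of 10 members and in 45.0% of all windows. In TGFB2 a CAGAC at -53 shares its last base with the E-box. The TPA-responsive AP-1 site TGAGTCA was in none of the 10 windows and in 4.92% of all. A match is a string of letters only, and binding was not measured.

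TGFB2 encodes the ligand best known for roles in heart and eye development and in epithelial to mesenchymal transition, and it showed the largest change among the members. Its gene lies at chr1:218345336-218444619 (GRCh38.p14). At low glucose its levels were 145, 149, 148 and 151 CPM in replicates 1 to 4, and at high glucose 348, 385, 415 and 425 CPM. The low glucose libraries lay within a few percent of each other, and the lowest high glucose library was far above all of them. The log2 change was 1.40 ± 0.06 (SE; adjusted p = 4.72e-06, limma), and only 1.61% of the genes with at least 5 CPM had a larger change in either direction. Part of this transcript is shared: 23.1% of its 31-base words also occur in other transcripts, chiefly TGFB2-OT1, which lies on the same strand within the 3′ end of the gene. TGFB2-OT1 went from 8.01 ± 1.23 to 15.5 ± 5.44 CPM. Its rise passed (log2 change 0.82 ± 0.25, adjusted p = 0.0342, limma), although the groups overlapped. Reads assigned to it were few beside those of TGFB2. The exons of TGFB2 also overlap those of TGFB2-AS1 on the opposite strand, and use of the strand in counting is not stated.

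TGFB1, the most widely expressed of the ligands, changed in the opposite direction. Its gene lies at chr19:41330323-41353922. Values at low glucose were 116, 117, 125 and 117 CPM, and at high glucose 89.0, 76.7, 85.4 and 79.0 CPM. All high glucose libraries were below all low glucose libraries. The log2 change was -0.52 ± 0.05 (adjusted p = 0.00018), and 31.9% of the genes with at least 5 CPM changed more. The direction held with GC content corrected, at a smaller size of -0.37.

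TGFB3, a ligand known for palate development and wound repair, fell further. The gene lies at chr14:75958097-75983011. It had 68.8, 65.3, 66.8 and 67.1 CPM at low glucose and 36.8, 37.3, 41.3 and 40.4 CPM at high glucose. The spread within each group was small beside the gap between them. Its log2 change was -0.77 ± 0.04 (adjusted p = 1.1e-05). TGFB3 shares exon sequence with TGFB3-AS1 on the opposite strand.

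INHBA encodes the beta A subunit, whose dimer is activin A. The gene lies at chr7:41685114-41705406. Low glucose libraries had 127, 119, 128 and 126 CPM, and high glucose libraries 133, 155, 161 and 165 CPM. The groups did not overlap, but high glucose replicate 1 was only slightly above the highest low glucose library. INHBA rose by 0.29 ± 0.07 on the log2 scale (adjusted p = 0.0111). This call was lost under quantile normalization, where the change was 0.18 (adjusted p = 0.0662).

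TGFBR1, the type I receptor kinase that phosphorylates SMAD2 and SMAD3, had the smallest spread for its change. The gene lies at chr9:99103647-99154192. It had 143, 142, 144 and 138 CPM at low glucose and 265, 277, 268 and 277 CPM at high glucose. Every high glucose library was well above every low glucose library, and high glucose replicate 1 was close to the others. The log2 change was 0.94 ± 0.02 (adjusted p = 8.61e-07), a 1.92-fold difference in mean CPM that 8.78% of the genes with at least 5 CPM exceeded.

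TGFBR2, the type II receptor that binds ligand first, rose by less. The gene lies at chr3:30606356-30694142. Its values were 39.1, 38.2, 39.7 and 39.9 CPM at low glucose and 50.5, 54.5, 55.9 and 58.3 CPM at high glucose. The change was 0.47 ± 0.04 (adjusted p = 0.000122). TGFBR3, also called betaglycan (chr1:91680343-91906002), had 30.6, 31.6, 32.2 and 32.4 CPM at low glucose and 34.2, 38.0, 37.03 and 39.0 CPM at high glucose. Its rise of 0.22 ± 0.04 (adjusted p = 0.00473) was smaller than the change of 67.6% of the genes with at least 5 CPM. The receptors thus rose together in these libraries but by unequal amounts.

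SMAD3 changed least. The gene lies at chr15:67065602-67195169. It had 99.0, 99.9, 96.8 and 99.4 CPM at low glucose and 100.4, 106, 109.5 and 114 CPM at high glucose. High glucose replicate 1 was less than 1 CPM above the highest low glucose library. The log2 change of 0.12 ± 0.04 was just past the threshold (adjusted p = 0.041), and 81.4% of the genes with at least 5 CPM changed more. The call did not last: it was lost in 9 of 17 alternative fits, and under quantile normalization the change was 0.00098 (adjusted p = 1). Of the 8 fits that each left out 1 library, only the one without high glucose replicate 1 passed (0.15, adjusted p = 0.00546). A change of SMAD3 is therefore not settled by these data.

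SMAD7, the inhibitory SMAD that recruits ubiquitin ligases to TGFBR1, was the least abundant member, with 123 to 241 estimated reads per library. The gene lies at chr18:48919853-48950965. Values were 10.3, 10.2, 11.4 and 9.91 CPM at low glucose and 17.0, 17.0, 19.5 and 17.0 CPM at high glucose. At high glucose 3 libraries were nearly equal and replicate 3 was higher. The rise was 0.70 ± 0.06 (adjusted p = 0.000102). SKIL, also called SnoN, is a nuclear corepressor that holds SMAD complexes inactive, and its gene lies at chr3:170357715-170396849. It had 34.2, 35.6, 42.1 and 40.9 CPM at low glucose and 75.7, 80.7, 81.6 and 88.3 CPM at high glucose. Low glucose replicates 3 and 4 were above replicates 1 and 2, but all were far below the high glucose libraries. SKIL rose 2.13-fold in mean CPM, or by 1.08 ± 0.08 on the log2 scale (adjusted p = 4.06e-05), and 5.18% of the genes with at least 5 CPM changed more.

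**Figure D1:**
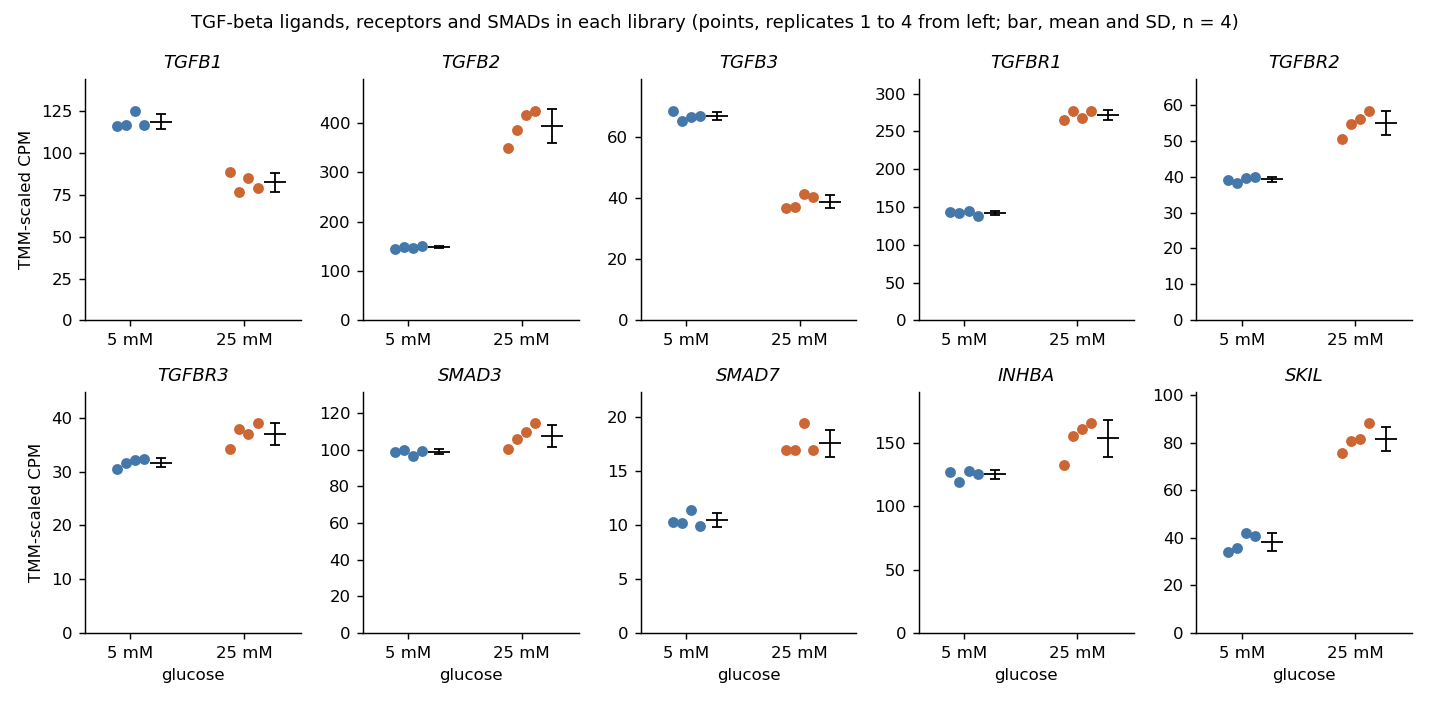
CPM of each of the 10 members (vertical axes, starting at 0) in the 4 low glucose (5 mM) and 4 high glucose (25 mM) libraries, with the mean and SD of each group (n = 4). The groups do not overlap in any panel: TGFB1 and TGFB3 are lower at high glucose, and the gap ranges from 98.8 against 108 CPM for SMAD3 to 148 against 393 CPM for TGFB2.

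Because a longer transcript yields more reads, levels were compared between genes as CPM per kilobase of the canonical transcript. At low glucose TGFB1 was the most abundant member (42.8 ± 1.58 CPM per kilobase), followed by TGFB2 (25.3), TGFBR1 (21.8), INHBA (20.7), TGFB3 (19.5), SMAD3 (15.3), TGFBR2 (8.66), SKIL (5.34), TGFBR3 (5.00) and SMAD7 (3.13). The libraries of INHBA and TGFB3 overlapped in level, as did those of SKIL and TGFBR3, so that these neighbors have no settled order. At high glucose the order began with TGFB2 (67.0 ± 5.88), TGFBR1 (41.9) and TGFB1 (29.7), then INHBA (25.4), SMAD3 (16.6), TGFBR2 (12.1), SKIL (11.4), TGFB3 (11.4), TGFBR3 (5.85) and SMAD7 (5.27). There, SKIL overlapped with both TGFBR2 and TGFB3, and TGFBR3 overlapped with SMAD7. TGFBR1 was more abundant per length than TGFBR2 in both groups. These levels depend on the transcript chosen for each gene and are a description.

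**Figure D2:**
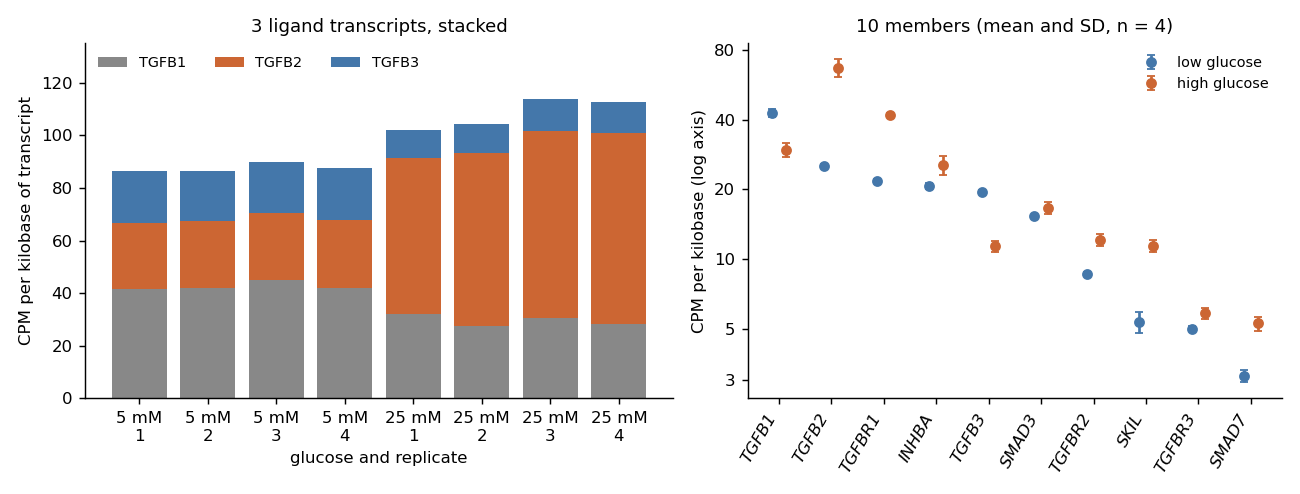
Left, CPM per kilobase of the 3 TGF-beta ligands stacked in each library (bars, axis from 0). Right, mean and SD (n = 4) of each member per kilobase (log axis) at low and high glucose: TGFB1 leads at low glucose (42.8) and TGFB2 at high glucose (67.0), while SMAD7 is lowest in both (3.13 and 5.27).

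The makeup of the TGF-beta ligand transcripts turned over. Per length, TGFB1 made up 48.8% ± 0.98, TGFB2 28.9% ± 0.66 and TGFB3 22.3% ± 0.64 of the 3 ligands together at low glucose (SD, n = 4). At high glucose TGFB1 made up 27.5% ± 2.66, TGFB2 61.9% ± 2.67 and TGFB3 10.5% ± 0.07. TGFB2 ranged from 28.0% to 29.4% across the low glucose libraries and from 58.1% to 64.3% across the high glucose libraries. The 3 ligands summed to between 86.5 and 89.7 CPM per kilobase in low glucose libraries and to between 102 and 114 in high glucose libraries. The rise of TGFB2 was thus larger than the combined fall of TGFB1 and TGFB3 on this scale, and the shares and their sum were not tested.

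A ratio between genes within a library does not depend on a factor common to that library, apart from the 1 CPM added to each value. The log2 ratio of TGFB2 to TGFB1, from CPM + 1, was 0.32, 0.34, 0.23 and 0.36 at low glucose and 1.96, 2.31, 2.27 and 2.41 at high glucose. The mean rose from 0.32 ± 0.06 to 2.24 ± 0.20, a difference of 1.92. The ratio of TGFBR1 to TGFBR2 rose by 0.46, from 1.83 ± 0.04 to 2.29 ± 0.07, so that the type I receptor gained on the type II receptor. SMAD7 gained on SMAD3 by 0.58, from -3.12 ± 0.10 to -2.54 ± 0.11. The ratio of SMAD3 to SMAD2 fell by 0.15, from 0.64 ± 0.04 to 0.48 ± 0.06, and by 0.31 where the trend with transcript length was removed. The latter value depends on the annotated length of SMAD2, whose canonical transcript has 34626 bases. Of the 31-base words of SMAD2, 5.30% also occur in other transcripts. For each of these 4 ratios the groups did not overlap. The exact 2-sided permutation test gave p = 0.0286, the smallest that 70 assignments allow, and 0.0286 after Benjamini-Hochberg adjustment over the 4. For TGFB2 to TGFB1 this outcome was fixed in advance, since TGFB2 rose and TGFB1 fell, each without overlap. The test of that ratio therefore adds nothing to those 2 changes.

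**Figure D3:**
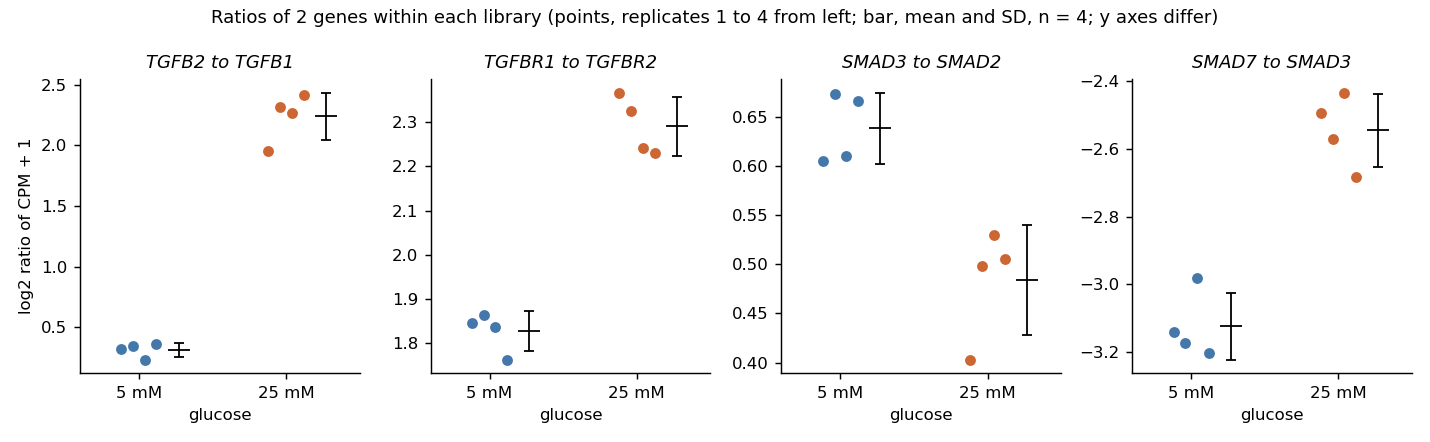
Log2 ratio of 2 genes within each library (vertical axes, from CPM + 1) at 5 mM and 25 mM glucose, with the mean and SD of each group (n = 4). TGFB2 to TGFB1 shows the widest gap (0.32 against 2.24) and SMAD3 to SMAD2 the narrowest (0.64 against 0.48).

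The rest of the pathway was read through 6 lists holding 79 further genes, of which 75 were in the table. Of these, 34 rose, 25 fell and 16 did not pass, so that 78.7% passed, and their median size of change was 0.44. For the 11297 genes with at least 5 CPM these values were 66.9% and 0.35, and for all genes 46.8% and 0.25. The lists, too, were written with earlier results of these data known, so this comparison is a description. In the sentences that follow, changes are log2 differences, high minus low glucose, with SE, and adjusted p-values come from limma.

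Of the 12 genes that keep ligand latent or release it, 2 were higher, 5 lower and 5 did not pass, and the 58.3% that passed lies between the 46.8% of all genes and the 66.9% of genes with at least 5 CPM. LTBP1, which tethers latent TGF-beta to the matrix, fell from 311 ± 6.88 to 124 ± 7.63 CPM (-1.32 ± 0.04, adjusted p = 1.9e-06), and LTBP2, a related matrix protein not known to bind the latent complex, changed by -0.74 ± 0.05. MMP14, a membrane protease that can release latent ligand, changed by -0.85 ± 0.05 (adjusted p = 1.08e-05). THBS1, or thrombospondin 1, an activator of latent TGF-beta, went the other way, from 555 ± 7.28 to 819 ± 29.3 CPM (0.56 ± 0.03, adjusted p = 1.31e-05). ITGAV, the integrin subunit shared by the activating integrins, had 323 ± 5.70 and 312 ± 16.5 CPM (-0.05 ± 0.04, adjusted p = 0.326), and its fall passed with GC content corrected (-0.14, adjusted p = 0.00577).

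The activin and nodal list had 3 of 7 genes higher, 3 lower and 1 not passed, and its largest changes were in antagonists. Its share passing was 85.7%, beside 46.8% of all genes and 66.9% of genes with at least 5 CPM. FST, or follistatin, which binds activin and blocks it, had 18.6, 18.1, 20.1 and 17.9 CPM at low glucose and 67.8, 67.1, 54.9 and 66.0 CPM at high glucose (1.72 ± 0.07, adjusted p = 4.56e-06). FSTL3, a follistatin relative with the same target, rose from 125 ± 3.31 to 241 ± 11.7 CPM (0.94 ± 0.04, adjusted p = 3.84e-06). Both thus rose by more than INHBA itself did. INHBB, the beta B subunit, rose by 0.50 ± 0.07 (adjusted p = 0.00119) at a low level of 3.02 to 4.69 CPM. GDF11, a ligand for activin receptors, fell by 0.37 ± 0.06 (adjusted p = 0.00245), and LEFTY2, a nodal inhibitor, fell from 9.65 ± 1.05 to 3.18 ± 0.11 CPM (-1.34 ± 0.08, adjusted p = 1.77e-05).

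Among other receptors and coreceptors 3 of 7 genes rose, none fell and 4 did not pass, a share of 42.9% that is close to the 46.8% of all genes. ACVR1B, the activin type I receptor, rose by 0.44 ± 0.04 (adjusted p = 9.71e-05) and ACVR2A, an activin type II receptor, by 0.40 ± 0.06 (adjusted p = 0.00202). BAMBI, a decoy receptor that lacks a kinase, rose by 0.38 ± 0.09 (adjusted p = 0.0109). ENG, or endoglin, an accessory receptor, had 33.6 ± 2.52 and 31.2 ± 2.67 CPM (-0.10 ± 0.08, adjusted p = 0.315).

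Of the genes that carry the SMAD signal, 7 of 11 rose, 3 fell and 1 did not pass, mostly by small amounts. Passing genes made up 90.9% of this list, beside 46.8% of all genes and 66.9% of genes with at least 5 CPM. SMAD2, the partner of SMAD3, had 64.8, 62.3, 63.1 and 62.3 CPM at low glucose and 75.7, 74.6, 75.6 and 80.3 CPM at high glucose (0.27 ± 0.03, adjusted p = 0.00018). SMAD4, the shared SMAD, rose from 41.3 ± 1.36 to 46.4 ± 2.37 CPM (0.16 ± 0.04, adjusted p = 0.0159), a call lost with quantile normalization, with GC content corrected and with length corrected (adjusted p = 0.0627 to 0.123). Of its 31-base words, 9.85% also occur in other transcripts. USP15, a deubiquitinase that acts on TGFBR1 and on SMADs, rose by 0.63 ± 0.07 (adjusted p = 0.000264), and IPO7, a nuclear import factor, by 0.19 ± 0.04 (adjusted p = 0.00708), which did not pass under quantile normalization (adjusted p = 0.0708) or with GC content corrected (adjusted p = 0.0649).

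In the coactivators EP300 and CREBBP, both with long transcripts, high glucose replicate 1 lay at the level of the low glucose libraries. EP300 had 154 CPM in that library, inside the low glucose range of 148 to 161, and 246, 264 and 269 CPM in the other 3. CREBBP had 172 CPM there and 251, 274 and 276 CPM in the others, against 170 to 182 at low glucose. Their changes of 0.54 ± 0.18 and 0.46 ± 0.15 just passed (adjusted p = 0.0398 and 0.041), and without that library they were 0.73 and 0.62. The call of EP300 was lost in 8 and that of CREBBP in 9 of 17 alternative fits. The number of genes passing in this list was the least stable of the 6, at 10 in all and 5 to 10 when single libraries were left out.

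Of the 13 genes listed as negative regulators, 9 were higher, 2 lower and 2 did not pass. The share that passed was 84.6%, beside 46.8% of all genes and 66.9% of genes with at least 5 CPM. Of the 11297 genes with at least 5 CPM, 3800 were higher and 3758 lower. The 9 higher regulators include RNF111, or Arkadia (0.46 ± 0.08, adjusted p = 0.00281), which is known for degrading SMAD7, SKI and SKIL and so for enhancing the pathway. NEDD4L, a ubiquitin ligase for activated SMAD2 and SMAD3, rose from 3.99 ± 0.12 to 11.1 ± 0.51 CPM (1.28 ± 0.05, adjusted p = 3.87e-06). SKI, the corepressor related to SKIL, rose from 41.8 ± 1.80 to 72.4 ± 3.12 CPM (0.78 ± 0.04, adjusted p = 1.02e-05). PMEPA1, a target gene that limits access of SMADs to the receptor, rose by 0.38 ± 0.03 (adjusted p = 0.000102), and SMURF1, a ubiquitin ligase, by 0.44 ± 0.07 (adjusted p = 0.00159). SMURF2, its close relative, had 102 ± 5.31 and 96.0 ± 5.75 CPM (-0.09 ± 0.05, adjusted p = 0.23), and its fall passed under quantile normalization (-0.20, adjusted p = 0.0155) and with GC content corrected (-0.13, adjusted p = 0.0274). LDLRAD4, which resembles PMEPA1 in structure and action, was an exception and fell from 35.3 ± 2.24 to 16.1 ± 1.52 CPM (-1.09 ± 0.07, adjusted p = 2.52e-05).

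Known transcriptional targets divided, with 10 of 25 higher, 12 lower and 3 not passed. Thus 88.0% passed, beside 46.8% of all genes and 66.9% of genes with at least 5 CPM. IL11, a cytokine linked to bone metastasis, rose from 36.5 ± 1.60 to 155 ± 9.002 CPM (2.06 ± 0.05, adjusted p = 7.17e-07). ANGPTL4, a secreted inhibitor of lipoprotein lipase, rose further as a ratio of mean CPM (8.09-fold) from a low level, 0.78 ± 0.32 to 6.34 ± 1.32 CPM (2.04 ± 0.18, adjusted p = 9.42e-05). KLF10, a TGF-beta-inducible early gene, rose from 35.6 ± 1.56 to 65.8 ± 2.42 CPM (0.87 ± 0.04, adjusted p = 5.27e-06), and BHLHE40, a transcriptional repressor, from 78.7 ± 2.03 to 129 ± 4.12 CPM (0.71 ± 0.03, adjusted p = 3.7e-06). CDKN2B, the cell cycle inhibitor p15 that TGF-beta induces in epithelial cells, fell from 124 ± 1.91 to 76.5 ± 2.73 CPM (-0.69 ± 0.03, adjusted p = 3.49e-06). COL3A1, FN1 and COL4A1, all matrix genes, had the highest CPM of the list, and all 3 fell. COL3A1, a fibrillar collagen, went from 17321 ± 289 to 5681 ± 165 CPM (-1.61 ± 0.17, adjusted p = 0.000215), or -0.51 under quantile normalization. COL4A1, a basement membrane collagen, changed by -1.07 ± 0.06 (adjusted p = 1.6e-05), and FN1, or fibronectin, by -0.52 ± 0.12 (adjusted p = 0.00848). Exons of LTBP1, LTBP2, ITGAV, THBS1, GDF11, ACVR2A, ENG, EP300, SMURF1, SMURF2, NEDD4L, LDLRAD4 and BHLHE40 overlap transcripts on the opposite strand, and those of LEFTY2 and SMAD4 overlap transcripts on the same strand, so that their reads may be shared. Signaling itself, as phosphorylated SMAD or secreted ligand, was not measured in these libraries.

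**Figure D4:**
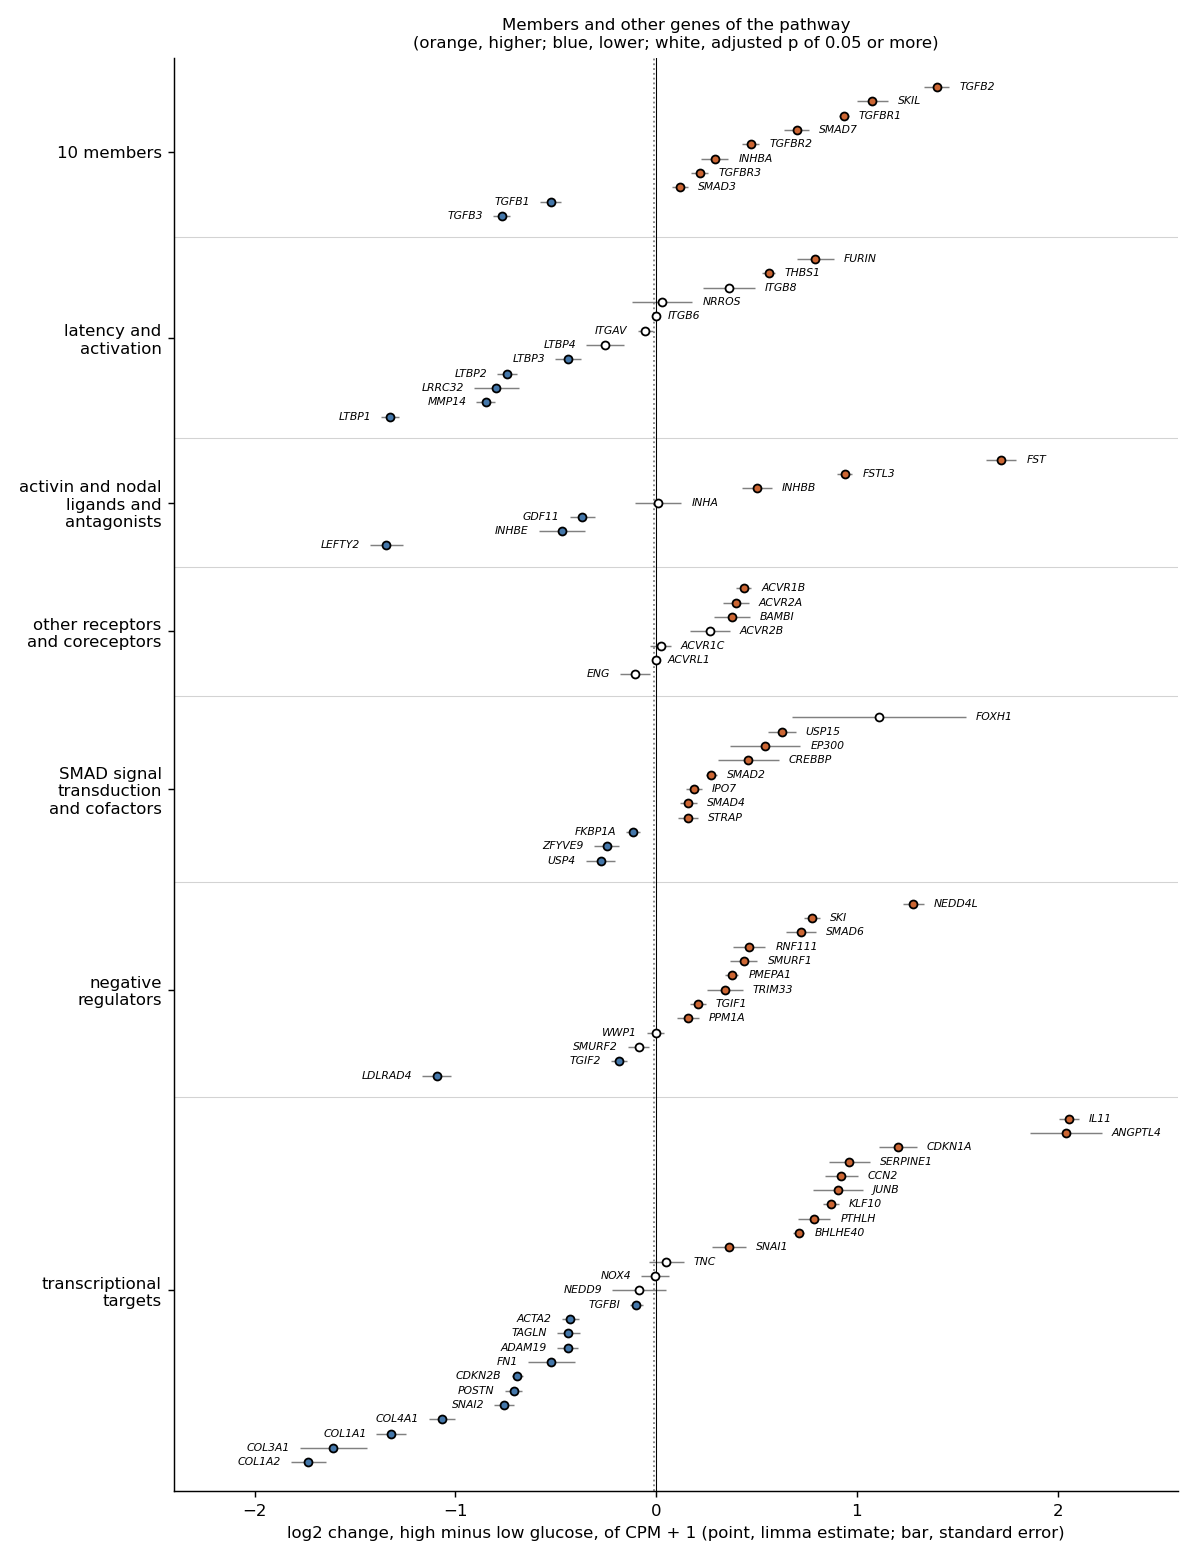
Log2 change, high minus low glucose (horizontal axis, from CPM + 1, points with standard errors), of the 10 members and the 75 other genes of 6 pathway lists, with the median of all genes as a dotted line at -0.01. Of the 75, 34 are higher, 25 lower and 16 did not pass. Of all genes, 22.0% are higher and 24.8% lower. Among the 13 genes listed as negative regulators 9 are higher, and the collagens COL3A1 and COL4A1 lie far to the left.

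TGFB2 had the largest change of the members, and the genes most like it were sought among 11297 genes with at least 5 CPM by Pearson correlation over the 8 libraries, on log2(CPM + 1). They included ANLN (r = 0.999), which encodes the cytokinesis protein anillin, and THBS1 (r = 0.999). ANLN rose from 144 ± 2.36 to 288 ± 17.6 CPM. In both, as in TGFB2, high glucose replicate 1 was the lowest and replicate 4 the highest of the high glucose libraries. With 2 groups far apart, such correlations mostly repeat the difference between the groups.

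The label of the cells was checked against marker genes. ESR1, the estrogen receptor, was under the floor of 3 reads in all 8 libraries, and its target TFF1 was at 0. PGR and GREB1, also known as targets of the receptor, were above the floor in every library, PGR at 4.76 ± 0.36 CPM at low and 5.35 ± 0.60 at high glucose and GREB1 at 4.6 ± 0.81 and 4.13 ± 0.39 CPM. The keratins KRT8 (from 131 ± 5.95 to 88.3 ± 10.3 CPM) and KRT18 (from 233 ± 4.85 to 170.1 ± 18.1 CPM) were present, but KRT19 was under the floor in all 8 libraries and CDH1, or E-cadherin, had only 0.95 ± 0.20 and 0.96 ± 0.45 CPM, while VIM, or vimentin, a mesenchymal filament, had 4091 ± 28.5 and 2967 ± 210 CPM. VIM fell (adjusted p = 0.00224), and of the 10 estrogen receptor and epithelial markers 1 rose, 3 fell and 6 did not pass. With VIM counted, 45.5% of the 11 markers passed, near the 46.8% of all genes. Among genes with at least 5 CPM, 66.9% passed. The 10 markers without VIM summed to 433 to 450.04 CPM in low glucose and 286 to 355 CPM in high glucose libraries. EPCAM, an epithelial adhesion molecule, rose from 4.50 ± 0.41 to 7.00 ± 0.44 CPM (0.54 ± 0.08, adjusted p = 0.00104), and ERBB2, a receptor kinase, fell from 63.6 ± 1.29 to 39.2 ± 2.58 CPM (-0.69 ± 0.05, adjusted p = 3e-05).

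Of 9 markers of other cell types, 2 rose, 5 fell and 2 did not pass. Thus 77.8% passed, beside 46.8% of all genes and 66.9% of genes with at least 5 CPM. Only 4 of the 9 had a mean of at least 5 CPM. The 6 leukocyte and endothelial markers together held only 13.2 to 17.4 CPM in low glucose and 16.1 to 20.4 CPM in high glucose libraries, with PTPRC under the floor in all libraries. CDH5 and VWF, both endothelial, fell at low levels. CDH5 went from 0.28 ± 0.13 to 0.02 ± 0.04 CPM and VWF from 1.45 ± 0.09 to 0.31 ± 0.42 CPM. CDH5 was above the floor in only 3 and VWF in 6 of the 8 libraries. PECAM1, also endothelial, rose from 1.0 ± 0.16 to 2.13 ± 0.58 CPM (adjusted p = 0.00775). CD14, a monocyte marker, rose at a low level, from 1.25 ± 0.34 to 4.24 ± 1.33 CPM (1.20 ± 0.21, adjusted p = 0.00252). The 3 stromal markers were abundant and all fell, their sum ranging from 2653 to 2671 CPM in low glucose and from 1211 to 1272 CPM in high glucose libraries. PDGFRB, a receptor of fibroblasts and pericytes, went from 1456 ± 16.8 to 766 ± 24.2 CPM (-0.93 ± 0.03, adjusted p = 2.38e-06), LUM, or lumican, from 901 ± 21.3 to 351 ± 16.3 CPM (-1.36 ± 0.04, adjusted p = 1.23e-06) and DCN, or decorin, from 306 ± 5.91 to 131 ± 10.8 CPM (-1.22 ± 0.06, adjusted p = 5.37e-06). They moved in the direction of TGFB1, TGFB3, LTBP1 and the collagens, and their part in those changes was not tested. The labels name the MDA-MB-157 line alone, so the name of this marker list does not mean that stromal cells were present. Within the line, fewer cells of a given state and less RNA per cell cannot be told apart in whole cultures.

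**Figure D5:**
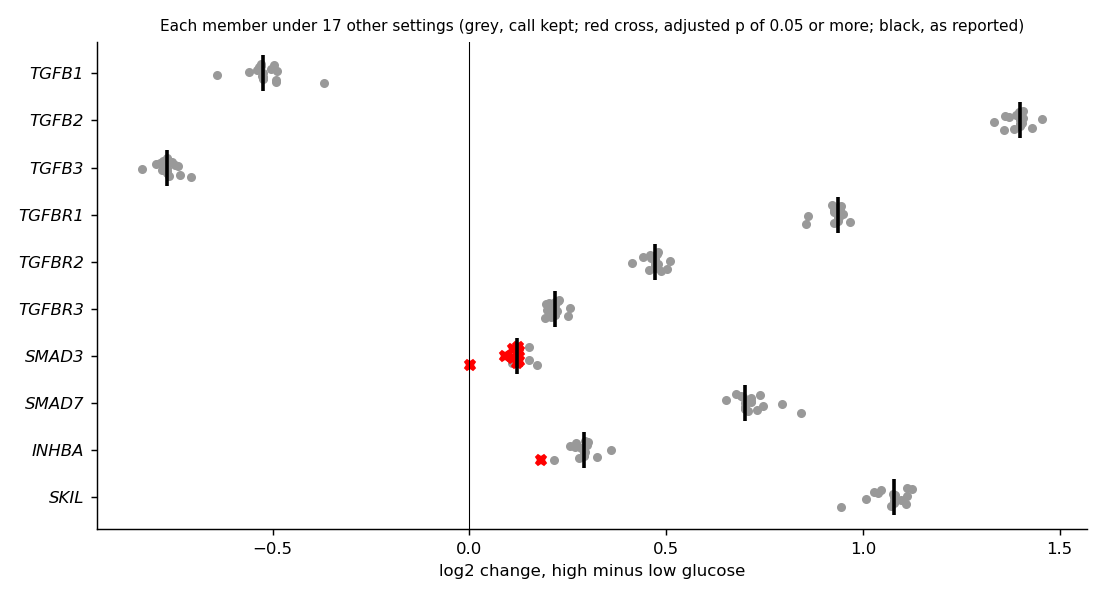
Log2 change of each member, high minus low glucose (horizontal axis), in the reported fit (black bars) and in 17 alternative fits (grey points; red crosses where the adjusted p was 0.05 or more). TGFB2 stays between 1.33 and 1.46 and TGFB1 between -0.64 and -0.37, while SMAD3 runs from 0.00 to 0.17 and INHBA from 0.18 to 0.36.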

How the data were processed

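RNA sequencing of 8 libraries was analysed, 4 per group, grouped by the treatment label. The authors deposited 1 table of CPM, which they scaled with trimmed mean of M values factors in edgeR. Submitters' notes name the build hg38, the methods, written first for tumors, name hg19, and the counting tool is not given in the sources used here. Of 21077 lines, 18 were pseudoautosomal Y copies identical to the X copies and were left out. Low values were whole reads in only 73.2% to 74.6% of cases (tolerance of 0.02 read, values under 200 reads), so that whole reads were not recovered and no count test was run. Reads per library were estimated from the step of 1 read. Depths and floors cover counting error only.

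Values were compared as log2(CPM + 1) with limma 3.58.1 in R 4.3.3 (lmFit, eBayes with a mean-variance trend, 2-sided), without covariates. Adjustment followed Benjamini and Hochberg across the 21059 genes, and the threshold was 0.05. Fold changes on this scale understate the change of low genes. Ratios were tested by exact permutation. Only the main limma fit was run on simulated data, with the same dispersion for all genes and no trend with transcript length. The labels do not say that replicates were separate cultures, so that p-values measure only the spread between these samples.

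The members and lists were chosen with earlier results of these data known. Named from each list were the 4 genes with the smallest adjusted p among those past the threshold with a mean of at least 1 CPM, the 3 with the largest mean CPM, and SMAD2 and SMAD4. ESR1, TFF1, PGR, GREB1, KRT19, CDH1, PTPRC, CD68, CDH5, VWF, PECAM1, RNF111, ANGPTL4 and TGFB2-OT1 were named after their values were seen. Of the 3 genes most like TGFB2 over the libraries, 1 is not reported here. Gene positions and promoters are from RefSeq on GRCh38.p14, and transcript length, GC content, overlaps and shared words from GENCODE on GRCh37. Not in the table under their symbols were MSTN, NODAL, LEFTY1, TDGF1, CD3E and ADIPOQ. The 17 alternatives were a pseudocount of 0.1, minimum means of 1 and 5 CPM, median-of-ratios and quantile scaling, removal of trends with transcript length or GC content (spline, 5 degrees of freedom), the replicate number as a block, no mean-variance trend, and leaving out each of the 8 libraries.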

Additional observations from a re-analysis of the deposited data

Results flagged for a closer look

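In groups of 4 libraries, a library was picked out where its distance to the nearest other library exceeded Dixon's 95% critical share of the whole range of the group. This held in 7 of 114 groups examined, where chance alone, at about 1 in 20 groups, gives about 5.7.

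Among the members, SMAD7 was picked out at high glucose, where replicate 3 (19.5 CPM) stood above 3 nearly equal libraries (0.9855 of the range), and TGFB1 at low glucose, where replicate 3 (125 CPM) was above the rest (0.8831). Neither touches the difference between the groups, which did not overlap for either gene. LDLRAD4 at low glucose was high in replicate 3 (0.8954), and LTBP1 at low glucose was high in replicate 1 (0.8329). FST at high glucose was low in replicate 3, at 54.9 CPM (0.8653). VIM at high glucose was high in replicate 1, at 3282 CPM (0.969). The estimated reads at low glucose were highest in replicate 4, at 12104198 (0.8639).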

How the results depend on the processing

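TGFB1, TGFB2, TGFB3, TGFBR1, TGFBR2, TGFBR3, SMAD7 and SKIL kept their direction and call in all 17 alternatives, and the members passing numbered 6 to 8 higher and 2 lower. SMAD3 (0.12 in the reported fit) lost its call under quantile normalization (0.00098) and with the replicate number as a block (0.12, adjusted p = 0.0766), and ranged from 0.089 to 0.15 with single libraries left out. INHBA lost its call only under quantile normalization (0.18). The SMAD signal transduction list had 10 genes passing, 5 under quantile normalization, 6 with the replicate block and 5 to 10 with single libraries left out (5 without low glucose replicate 1, 6 without low glucose replicate 3 and 6 without high glucose replicate 3). ENG turned from -0.10 to 0.057 with the GC trend removed (adjusted p = 0.456), passing in neither. The causes were not tested.

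The replicate numbers did not pair the samples: deviations of same-numbered libraries correlated at 0.07, -0.03, 0.01 and -0.04, and 1 of 4 low glucose libraries correlated best with its own number. With the block, 8921 genes passed in place of 9849, and the log2 ratios kept their values (1.92, 0.46, -0.15 and 0.58) at an exact p of 0.125, the smallest that 16 assignments allow, which says nothing of their stability. In the fits over all 21059 genes, 8899 to 10156 passed. For the 42 other named genes, 686 of 712 alternative values kept their call, 22 lost it, 3 gained it and 1 reversed. Depth limits only genes near 0.212 to 0.267 CPM, and no member was near it.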
